A study of Mus musculus with 2 samples.

Results

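Pax3 and Pax7, 2 of the 32286 features counted, were described across the myogenic cells of regenerating mouse muscle, by sorted library and by the level of 5 marker genes. Both were taken by their symbols in the deposited gene list, and both were detected. The cells were satellite cells, the resident stem cells of skeletal muscle, sorted by FACS 5 days after injury. They came from Pax3GFP/+ mice (muscles labelled biceps and recto femoris), which carry GFP at 1 of the 2 Pax3 alleles. GFP+ cells (labelled PAX3+) gave 1 library and GFP- cells (labelled PAX3-) gave the other, each from 20000 cells loaded for droplet-based 3′ single-cell RNA sequencing. The labels also give the genotype of both samples as wild-type, although the titles name Pax3GFP/+ animals. The sources used here do not give the age or number of the mice, or which of the muscles each library holds. With 1 library per fraction there was no test between fractions, and every interval below is a 95% interval that covers counting error only.

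PAX3 and PAX7 are paralogous paired-box and homeobox transcription factors. In the mouse embryo both act upstream of the myogenic regulatory factors, and Pax3 is needed for the migrating muscle precursors of the limb. In adult muscle PAX7 marks satellite cells in general and is needed to maintain them, whereas PAX3 is kept in satellite cells of some muscles. Cells that commit to differentiation switch on Myog and normally lose Pax7 as they become myocytes.

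Pax3 (ENSMUSG00000004872) lies on chromosome 1 from 78101267 to 78197134 on the minus strand, and Pax7 (ENSMUSG00000028736) on chromosome 4 from 139737062 to 139833528, also on the minus strand, in GENCODE M21 on GRCm38/mm10, the build named in the submitters' processing notes. No other annotated gene overlaps either of them. The coding sequences of Pax3-202 (8 exons) and Pax7-201 (9 exons) matched at 75.8% of 1399 aligned bases, so it was asked whether reads of one could count for the other. The 90 coding bases centred on their longest shared run are shown; other stretches were not searched for a higher share of identical bases. They run from coding base 47 to 136 of each transcript, across exons 1 and 2, between 78195436 and 78196703 for Pax3 and between 139830323 and 139832865 for Pax7, both read 5′ to 3′ on the minus strand. Capitals mark the 12 bases that differ.
Pax3: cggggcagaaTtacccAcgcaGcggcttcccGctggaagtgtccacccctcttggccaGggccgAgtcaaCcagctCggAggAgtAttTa
Pax7: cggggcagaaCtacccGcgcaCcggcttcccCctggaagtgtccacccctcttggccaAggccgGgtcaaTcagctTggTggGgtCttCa
The longest run of identical bases in the coding sequences was 26, and the 2 transcripts shared 0 words of 31 bases on either strand. In the last 500 bases of each transcript, the end that a 3′ library reads, the longest shared run was 9 bases. Counts of the paralogues were therefore used as separate measurements.

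Of 604 GFP+ and 2683 GFP- barcodes that passed the filters (a minimum of 1000 UMIs and 500 genes, and no more than 10% of UMIs mitochondrial), 524 GFP+ (86.8%) and 2494 GFP- (93.0%) lay outside the range of every non-myogenic marker list and are called myogenic-range cells here. A UMI, or unique molecular identifier, stands for 1 captured transcript. The barcodes left out were mostly macrophage-range among GFP+ barcodes (76 of 604) and mural-range among GFP- barcodes (110 of 2683). The 8 myogenic markers include Pax7, Myf5, Myod1 and Myog, which are described below, so their level is no separate check of identity. All 8 myogenic markers were detected in both sets of myogenic-range cells, where their summed level was 3370 CPM in GFP+ and 3035 CPM in GFP- cells (UMIs per 1000000 UMIs of the same cells). The summed level of the 11 macrophage markers there was 18.3 CPM in GFP+ and 8.75 CPM in GFP- cells. Myogenic-range cells had a median of 19137.5 UMIs in the GFP+ library and 14996 UMIs in the GFP- library, and 2 kept barcodes occurred in both. Because depth differed, cells were sorted into marker levels and scored for detection after each was thinned to 3000 UMIs; 17 GFP+ and 61 GFP- cells were too shallow for this.

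Pax3 was low in both libraries and higher in the GFP+ one. Its 236 UMIs in GFP+ cells made 22.1 CPM (19.4 to 25.1), against 217 UMIs and 5.12 CPM (4.46 to 5.85) in GFP- cells, a ratio of 4.32 (3.58 to 5.21). Since GFP reports the Pax3 locus, the sort selected for this difference, and it is a description of the sort. Most cells of either library had no Pax3 UMI: as deposited, 163 of 524 GFP+ cells (31.1%) and 184 of 2494 GFP- cells (7.38%) had 1 or more, and at 3000 UMIs 36 of 507 GFP+ cells (7.10%) and 36 of 2433 GFP- cells (1.48%) did. No GFP+ cell had more than 5 Pax3 UMIs and no GFP- cell more than 3. With each cell weighted equally, the ratio of the mean per-cell CPM was 6.14.

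How much of this Pax3 lay above background was judged in cells that should lack the gene. Macrophage-range cells had 0.837 CPM of Pax3 in the GFP+ library (1 UMI) and 3.13 CPM in the GFP- library (2 UMIs, 0.379 to 11.3). Mural-range cells of the GFP- library had 0 UMIs, and 3 counts there would make 2.81 CPM. Empty droplets, barcodes with 1 to 100 UMIs, held Pax3 at 10.7 CPM in the GFP+ library and 3.57 CPM in the GFP- library (1.84 to 6.23). At 3000 UMIs, 0 of 73 GFP+ macrophage-range cells had a Pax3 UMI, against 1 of 52 GFP- macrophage-range cells (1.92%) and 0 of 94 GFP- mural-range cells. The GFP+ share of 7.10% stood above these. The GFP- share of 1.48% was under that single macrophage-range cell's share (0.0487% to 10.3%) and under the 3.19% that 0 of 94 mural-range cells allow, so the share alone did not tell GFP- cells from background at this depth. The summed GFP- level was above the limit that 0 mural UMIs allow, but its interval overlapped those of the GFP- macrophage-range cells and empty droplets.

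Pax7 was the more abundant transcript and differed less between the fractions. It had 2221 UMIs and 208 CPM (199 to 217) in GFP+ cells, against 6257 UMIs and 148 CPM (144 to 151) in GFP- cells, a ratio of 1.41 (1.34 to 1.48). Among 2912 genes with at least 50 CPM in 1 or the other library, 4.64% were at least 1.5-fold higher in GFP+ cells and 1.24% at least 1.5-fold lower, so Pax7 did not reach that size. As deposited, Pax7 was seen in 427 of 524 GFP+ cells (81.5%) and 1819 of 2494 GFP- cells (72.9%), and at 3000 UMIs in 259 of 507 GFP+ cells (51.1%) and 887 of 2433 GFP- cells (36.5%).

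The spread of Pax7 over single cells was wide in both libraries. The median cell had 213 CPM in the GFP+ library and 126 CPM in the GFP- library, and the highest had 2318 CPM in GFP+ and 2995 CPM in GFP- cells, with at most 23 UMIs in a GFP+ cell and 18 in a GFP- cell. More than 500 CPM was found in 105 GFP+ cells (20.0%) and 170 GFP- cells (6.82%). In cells that should lack it, Pax7 was at 0.837 CPM in GFP+ macrophage-range cells, 26.6 CPM in GFP- macrophage-range cells (17 UMIs in 5 cells, 15.5 to 42.6) and 12.2 CPM in GFP- mural-range cells (6.49 to 20.8), and empty droplets held 76.6 CPM in the GFP+ and 73.4 CPM in the GFP- library. The level in myogenic-range cells stood above all of these.

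To follow both genes across myogenic states, cells were sorted by the thinned counts of 5 markers, in this order: 2 or more UMIs of Myog, the transcription factor of terminal differentiation; 1 or more of Mki67, a marker of cycling cells; 2 or more of Erfe, which encodes the hormone erythroferrone; 2 or more of Chodl, a transmembrane lectin enriched in quiescent satellite cells; 1 or more of Myod1, the transcription factor of activated myoblasts; and none of these. These states are ranges of marker counts and not cell types, and 87 GFP+ cells (17.2%) and 259 GFP- cells (10.6%) passed the limit of 2 or more markers.

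**Figure D1:**
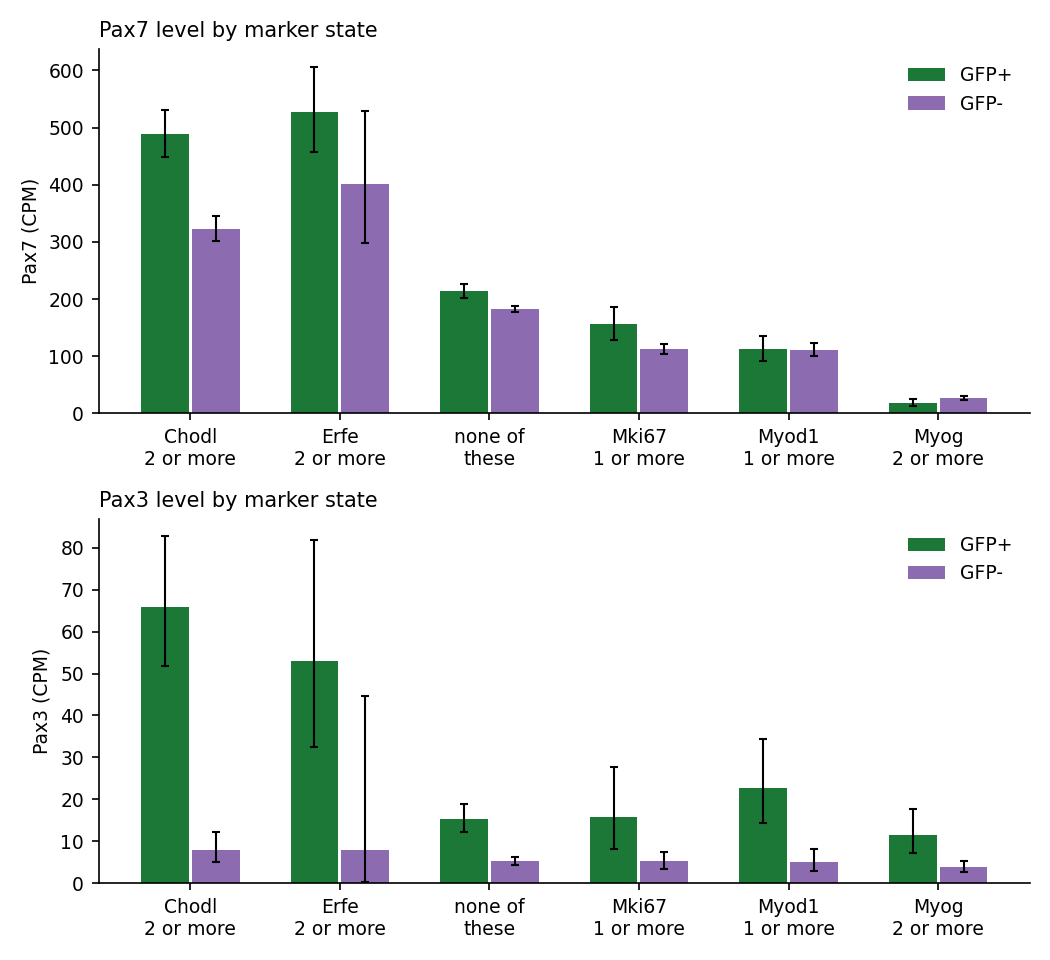
Pax7 (top) and Pax3 (bottom) in CPM by marker state in GFP+ (green) and GFP- (purple) myogenic-range cells; bars are summed UMIs over summed totals and lines are exact 95% Poisson intervals. Pax7 stood highest in the Erfe and Chodl states (528 and 488 CPM in GFP+ cells) and lowest in the Myog state (18.1 CPM), while Pax3 in GFP- cells stayed between 3.78 and 8.01 CPM.

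Pax7 formed a steep order over these states. It was at 528 CPM in 52 GFP+ and 401 CPM in 17 GFP- cells of the Erfe state, and at 488 CPM in 94 GFP+ and 323 CPM in 247 GFP- cells of the Chodl state. The intervals of these 2 states overlapped within each library, so their order was not resolved. Cells with none of the markers, the largest state with 234 GFP+ and 1387 GFP- cells, had 214 CPM of Pax7 in GFP+ and 182 CPM in GFP- cells. The Mki67 state followed with 156 CPM in 23 GFP+ and 112 CPM in 214 GFP- cells, and the Myod1 state with 112 CPM in 39 GFP+ and 111 CPM in 177 GFP- cells; their intervals overlapped in each library. The Myog state was the lowest, at 18.1 CPM (12.5 to 25.4) in 65 GFP+ cells and 26.2 CPM (22.8 to 30.0) in 391 GFP- cells.

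The Myog-state value of the GFP- library was at the level of the macrophage-range cells of the same library (26.6 CPM, 15.5 to 42.6) and above that of the mural-range cells (12.2 CPM, 6.49 to 20.8). The macrophage-range value rests on 17 UMIs in 5 of 57 cells, and the same cells held 145 Myog UMIs, 139 of them in 1 cell. Cells of the Erfe and Chodl states were the shallowest (medians of 6244.5 and 10441.5 UMIs in GFP+ and 7062 and 10508 UMIs in GFP- cells, against 22275 UMIs in GFP+ and 14918 UMIs in GFP- cells with none of the markers). The immediate-early gene Fos, which tissue dissociation can induce, was highest in the Erfe state at 1327 CPM in GFP+ and 1434 CPM in GFP- cells, against 339 CPM in GFP+ and 285 CPM in GFP- cells with none of the markers. Fos was at 1037 CPM in GFP+ and 673 CPM in GFP- cells of the Chodl state. In the Mki67 state it was at 1057 CPM in GFP+ and 232 CPM in GFP- cells. The part of depth and of this response in the Pax7 levels was not tested.

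Within states the difference in Pax7 between the fractions varied. The ratio of GFP+ to GFP- cells was 1.51 (1.36 to 1.68) in the Chodl state and 1.39 (1.14 to 1.70) in the Mki67 state. In cells with none of the markers it was 1.18 (1.10 to 1.25), smaller than the 1.41 of all cells together. The intervals of the Erfe state at 1.32 (0.963 to 1.84), the Myod1 state at 1.01 (0.806 to 1.25) and the Myog state at 0.692 (0.464 to 1.002) included 1. The Erfe state held 10.3% of GFP+ cells and 0.699% of GFP- cells, and the Chodl state 18.5% of GFP+ cells and 10.2% of GFP- cells, so the Pax7-high states made up more of the GFP+ library.

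Pax3 in GFP+ cells was also highest in the Chodl and Erfe states, and the order of its other states was not resolved. It was at 66.0 CPM (51.9 to 82.7) in the Chodl state and 53.1 CPM (32.4 to 82.0) in the Erfe state, whose intervals overlapped. The Myod1 state had 22.8 CPM (14.3 to 34.5), the Mki67 state 15.8 CPM (8.18 to 27.7), cells with none of the markers 15.2 CPM (12.1 to 18.8) and the Myog state 11.5 CPM (7.13 to 17.6), and these 4 states overlapped. In GFP- cells Pax3 lay between 3.78 CPM in the Myog state (2.55 to 5.39) and 8.01 CPM in the Erfe state, which rests on 1 UMI, with 7.97 CPM (4.93 to 12.2) in the Chodl state. The largest gap between fractions with more than 1 UMI on either side was in the Chodl state, where the ratio of GFP+ to GFP- cells was 8.28 (5.05 to 14.2), against 2.90 (2.17 to 3.86) in cells with none of the markers.

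The markers were then taken 1 at a time, as the ratio of cells with 2 or more UMIs to cells with 0 UMIs of the marker. Chodl-high cells carried more of both paralogues. Pax7 was at 496 CPM in Chodl-high and 144 CPM in Chodl-0 cells of the GFP+ library, a ratio of 3.45 (3.14 to 3.79), and at 323 CPM in Chodl-high and 124 CPM in Chodl-0 cells of the GFP- library, a ratio of 2.60 (2.42 to 2.80). Pax3 was at 60.8 CPM in Chodl-high and 15 CPM in Chodl-0 GFP+ cells, a ratio of 4.05 (3.05 to 5.37), or 2.60 (1.865 to 3.598) at 10000 UMIs. In GFP- cells Pax3 was at 9.31 CPM in Chodl-high and 4.52 CPM in Chodl-0 cells, a ratio of 2.06 (1.31 to 3.13) on 26 UMIs in the Chodl-high cells.

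Erfe-high cells gave the same direction. Pax7 was 2.76-fold (2.38 to 3.19) higher in 53 Erfe-high than in 425 Erfe-0 GFP+ cells (1.68-fold, 1.41 to 1.98, at 10000 UMIs), and 2.66-fold (1.98 to 3.49) higher in 18 Erfe-high than in 2351 Erfe-0 GFP- cells. Pax3 was 2.49-fold (1.49 to 3.94) higher in the Erfe-high GFP+ cells. In GFP- cells the Pax3 ratio of 2.94 rested on 2 UMIs in the Erfe-high cells, and its interval of 0.354 to 10.8 allows either direction.

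**Figure D2:**
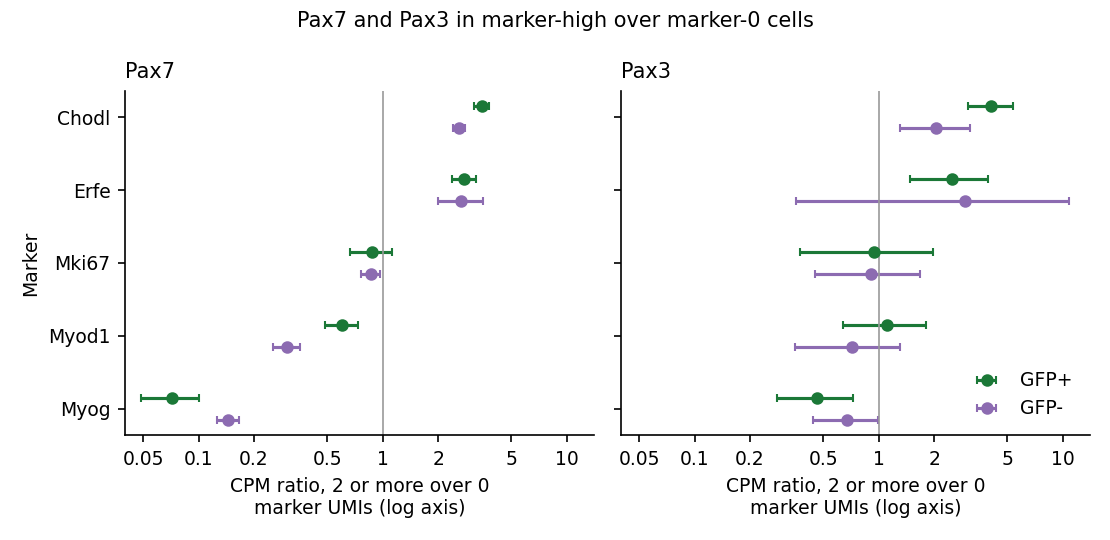
Ratio of CPM in cells with 2 or more UMIs of a marker to CPM in cells with 0, on a log axis, for Pax7 (left) and Pax3 (right) in GFP+ (green) and GFP- (purple) cells; lines are exact 95% intervals. Chodl and Erfe lie right of 1 for Pax7 in both libraries, Myog lies far left of 1 for Pax7 (0.0713 and 0.144) and nearer to 1 for Pax3 (0.461 and 0.669). The GFP- Pax3 levels behind 0.669 had intervals that overlapped those of GFP- macrophage-range cells and empty droplets. The GFP+ Myog-high level behind 0.461 had an interval that overlapped that of GFP+ empty droplets.

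The paralogues differed most across Myog. Pax7 was at 18.1 CPM in 65 Myog-high and 254 CPM in 424 Myog-0 GFP+ cells, a ratio of 0.0713 (0.0490 to 0.1005), and at 26.2 CPM in 391 Myog-high and 181 CPM in 1926 Myog-0 GFP- cells, a ratio of 0.144 (0.125 to 0.166). Cells with exactly 1 Myog UMI were in between, at 103 CPM of Pax7 in GFP+ and 92.0 CPM in GFP- cells. Pax3 was at 11.5 CPM in Myog-high and 25 CPM in Myog-0 GFP+ cells, a ratio of 0.461 (0.279 to 0.723), and at 3.78 CPM in Myog-high and 5.65 CPM in Myog-0 GFP- cells, a ratio of 0.669 (0.438 to 0.988). The Pax3 and Pax7 intervals did not overlap in either library. In GFP- cells, however, both Pax3 levels had intervals that overlapped those of macrophage-range cells (3.13 CPM) and empty droplets (3.57 CPM) of that library. Mural-range cells had 0 Pax3 UMIs. In GFP+ cells the Myog-high Pax3 level of 11.5 CPM (7.13 to 17.6) was at that of GFP+ empty droplets (10.7 CPM, 6.01 to 17.7). It was above that of GFP+ macrophage-range cells (0.837 CPM, 0.0212 to 4.66). The part of background in the Pax3 ratio of either library was not tested. As deposited, 15 of 65 Myog-high GFP+ cells had a Pax3 UMI and 11 had a Pax7 UMI, whereas 143 of 424 Myog-0 GFP+ cells had a Pax3 UMI and 399 a Pax7 UMI.

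Myod1 and Mki67 gave smaller contrasts. Pax7 was at 138 CPM in Myod1-high and 230 CPM in Myod1-0 GFP+ cells, a ratio of 0.601 (0.486 to 0.735), and at 50.7 CPM in Myod1-high and 167 CPM in Myod1-0 GFP- cells, a ratio of 0.303 (0.255 to 0.357). Thinning to 2000 UMIs turned the GFP+ value to 1.005 (0.790 to 1.26), whereas 5000 UMIs gave 0.483 (0.407 to 0.568) and 10000 UMIs 0.283 (0.238 to 0.334). The Pax3 intervals for Myod1 included 1, with ratios of 1.11 (0.642 to 1.80) in GFP+ and 0.716 (0.351 to 1.31) in GFP- cells, but lay under 1 in GFP+ cells at 5000 UMIs (0.626, 0.379 to 0.986) and in GFP- cells in another draw (0.272, 0.0734 to 0.709). For Mki67, Pax7 had a ratio of 0.876 (0.668 to 1.13) in GFP+ cells, of which 10 were Mki67-high, and 0.859 (0.763 to 0.963) in GFP- cells. The GFP+ value was 1.18 (0.782 to 1.71) in another draw and 0.562 (0.467 to 0.672) at 10000 UMIs. The Pax3 ratios for Mki67 were 0.942 (0.374 to 1.97) in GFP+ and 0.913 (0.448 to 1.67) in GFP- cells, and both intervals included 1; over all kept barcodes the GFP+ ratio was 0.262 (0.0316 to 0.959).

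The balance of the paralogues was expressed as Pax3 UMIs per 100 Pax7 UMIs. Each UMI is 1 transcript end whatever the transcript's length, but the 2 genes may be captured unequally, so the measure is compared between states and libraries only. Over all myogenic-range cells it was 10.6 (9.25 to 12.2) in GFP+ and 3.47 (3.02 to 3.97) in GFP- cells. It was highest in the Myog state, at 63.6 (35.0 to 113) on 21 Pax3 and 33 Pax7 UMIs in GFP+ cells and 14.4 (9.49 to 21.2) on 30 Pax3 and 208 Pax7 UMIs in GFP- cells. The next was the Myod1 state in GFP+ cells, at 20.4 (12.3 to 32.4). Cells with none of the markers had 7.10 (5.63 to 8.85) in GFP+ and 2.88 (2.38 to 3.46) in GFP- cells, and the Chodl state 13.5 (10.5 to 17.2) in GFP+ and 2.46 (1.52 to 3.79) in GFP- cells. In the Myog state of the GFP- library both genes were near the levels of the macrophage-range cells, and above those of the mural-range cells, which had 0 Pax3 UMIs. In the Myog state of the GFP+ library Pax3 (11.5 CPM) was near its level in GFP+ empty droplets (10.7 CPM).

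**Figure D3:**
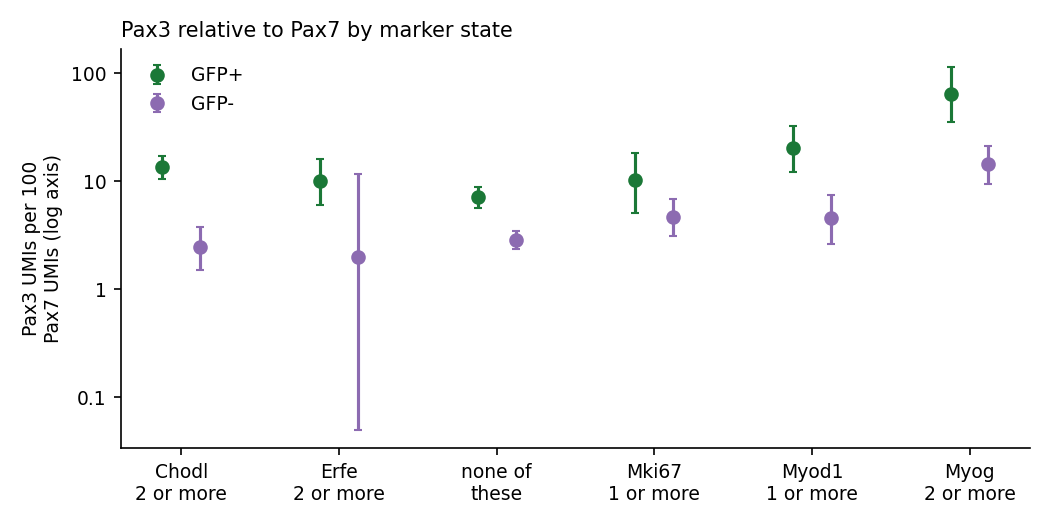
Pax3 UMIs per 100 Pax7 UMIs (log axis) by marker state in GFP+ (green) and GFP- (purple) cells, with exact 95% intervals. The Myog state stands highest in both libraries, at 63.6 in GFP+ and 14.4 in GFP- cells, and the Erfe state of the GFP- library rests on 1 Pax3 UMI. Pax3 in the GFP+ Myog state was near its level in GFP+ empty droplets.

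Co-detection asked whether the 2 transcripts occur in the same cells. At 3000 UMIs, 22 GFP+ cells had both, 14 only Pax3, 237 only Pax7 and 234 neither, and 16 GFP- cells had both, 20 only Pax3, 871 only Pax7 and 1526 neither. Pax7 was seen in 61.1% of GFP+ cells with and 50.3% of GFP+ cells without a Pax3 UMI, a difference of 10.8 percentage points whose interval of -6.06 to 25.6 (Newcombe) included 0. In GFP- cells the shares were 44.4% with and 36.3% without a Pax3 UMI, a difference of 8.11 points (-6.92 to 24.2). With the detection probability of each cell in place of a random draw the differences were 17.4 points in GFP+ and 6.92 points in GFP- cells. Another draw at the same depth gave 4.18 points (-10.9 to 19.1) in GFP+ and 23.3 points (8.001 to 37.1) in GFP- cells, so whether the interval included 0 depended on the draw.

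As deposited, without thinning, the numbers were larger. In the GFP+ library 142 cells had both transcripts, 21 only Pax3, 285 only Pax7 and 76 neither, and Pax7 was seen in 87.1% of cells with and 78.9% of cells without Pax3, a difference of 8.17 points (1.01 to 14.4). In the GFP- library 151 cells had both, 33 only Pax3, 1668 only Pax7 and 642 neither, and Pax7 was seen in 82.1% with and 72.2% without Pax3, a difference of 9.86 points (3.42 to 15.1). GFP- cells with Pax3 were deeper, with a median of 16642.5 UMIs against 14917 in those without. In GFP+ cells the medians were close, at 19421 UMIs with and 19106 without Pax3. The part of depth in the co-detection difference was not tested. Most cells in which Pax3 was seen also held Pax7. Of cells with Pax3 alone, 12 of 21 GFP+ cells and 15 of 33 GFP- cells were in the Myog state.

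Within single states the relation was mostly not resolved. In the Chodl state at 3000 UMIs, 11 of 17 GFP+ cells with and 60 of 77 without a Pax3 UMI had Pax7, a difference of -13.2 points (-37.9 to 7.59). In GFP- cells with none of the markers 7 of 21 with and 574 of 1366 without a Pax3 UMI had Pax7, a difference of -8.69 points (-25.04 to 12.8). At this depth the interval included 0 in every state of either library that had cells with Pax3. As deposited it lay above 0 in 2 states, both in the GFP- library: the Myog state, with Pax7 in 11 of 26 cells with and 82 of 365 without Pax3 (19.8 points, 2.47 to 39.0), and cells with none of the markers, with 94 of 104 with and 1062 of 1283 without (7.61 points, 0.160 to 12.4). In every GFP+ state the interval as deposited included 0.

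Sorted instead by the Pax7 count at 3000 UMIs, cells showed more Pax3 with more Pax7 up to 2 UMIs. In GFP+ cells Pax3 was at 15.4 CPM (12.6 to 18.8) in 248 cells with 0 Pax7 UMIs, 26.3 CPM (20.3 to 33.4) in 134 cells with 1, 41.1 CPM (30.9 to 53.6) in 86 cells with 2 and 38.6 CPM (22.1 to 62.7) in 39 cells with 3 or more. In GFP- cells it was at 4.13 CPM (3.42 to 4.94) with 0, 6.59 CPM (5.06 to 8.43) with 1, 9.47 CPM (6.24 to 13.8) with 2 and 7.91 CPM (3.41 to 15.6) with 3 or more. The intervals at 0 and 2 Pax7 UMIs did not overlap in either library, and the last step did not differ from the step before it beyond counting error.

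The markers moved with the same steps. Chodl went up along them, at 86.1, 233, 427 and 545 CPM in GFP+ cells and 58.5, 142, 203 and 275 CPM in GFP- cells. Myog went down, at 1607, 67.3, 28.9 and 12.1 CPM in GFP+ cells and 1107, 184, 74.7 and 41.5 CPM in GFP- cells. Median depth was lower along the steps as well, with 24043.5 UMIs at 0 and 8449 at 3 or more Pax7 UMIs in GFP+ cells. Fos, which tissue dissociation can induce, went up along the steps. It was at 430, 563, 693 and 895 CPM in GFP+ cells and 272, 312, 359 and 460 CPM in GFP- cells. The part of depth and of this response in the steps was not tested. Six2, the homeobox gene named beside PAX3 in the study's title, stayed between 23.4 and 31.4 CPM in GFP+ cells and between 7.35 and 11.9 CPM in GFP- cells, and the intervals of the lowest and highest step overlapped in both libraries.

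**Figure D4:**
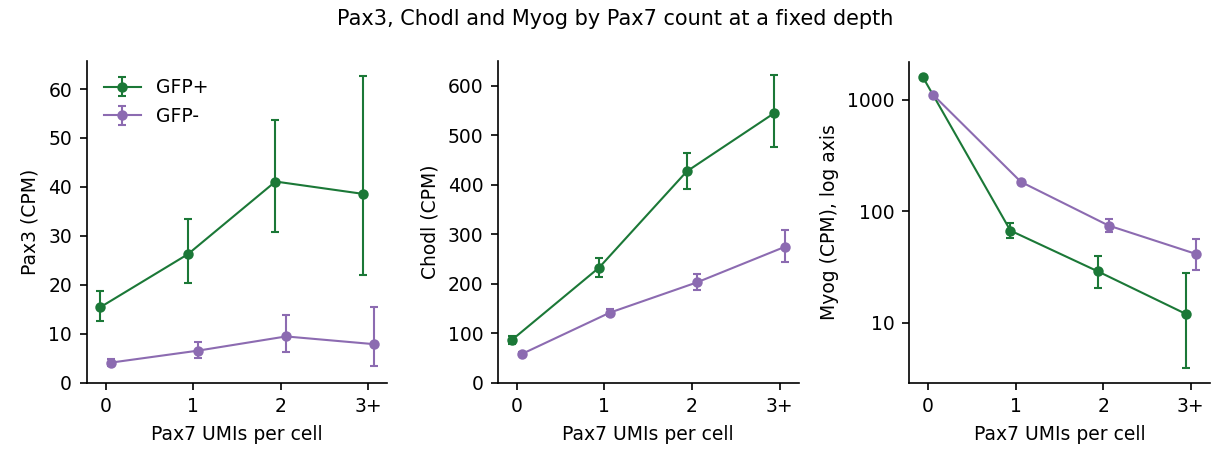
Pax3 (left), Chodl (middle) and Myog (right, log axis) in CPM against the Pax7 UMIs of a cell thinned to 3000 UMIs, in GFP+ (green) and GFP- (purple) cells with exact 95% Poisson intervals. Pax3 and Chodl are higher with 2 Pax7 UMIs than with 0 in both libraries, and Myog has a lower value at each step.

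The gene list also holds a reporter feature, named as an H2B-GFP cassette, whose relation to the Pax3GFP allele the labels do not state. It had 570 UMIs in 285 of 524 GFP+ cells (54.4%) and 0 UMIs in GFP- myogenic-range cells. Its level was 53.4 CPM in GFP+ myogenic-range cells and 34.3 CPM in GFP+ empty droplets. In the GFP+ library Pax3 was 1.58-fold (1.14 to 2.16) higher in 96 cells with than in 411 cells without a reporter UMI at 3000 UMIs, at 32.0 CPM in cells with and 20.3 CPM in cells without one. Pax7 was 1.32-fold (1.19 to 1.47) higher in the same comparison, and Six2 was 1.11-fold (0.780 to 1.55) higher with an interval that included 1. Myf5 was 1.25-fold (1.14 to 1.36) and Myog 1.27-fold (1.21 to 1.34) higher. At 3000 UMIs a Myog UMI was seen in 14.6% of cells with and 16.8% of cells without a reporter UMI. Mki67 was lower with the reporter, at a ratio of 0.444 (0.299 to 0.637). Cells with a reporter UMI were shallower, with a median of 15223.5 UMIs against 20179 in cells without one, and the part of depth was not tested.

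The genes that went with each paralogue were ranked by the ratio of their CPM in cells with at least 1 UMI to cells with 0 UMIs of it at 3000 UMIs, in both libraries, among genes with at least 50 CPM on 1 side or the other. Of 2774 genes compared for Pax7, 90 (3.24%) were at least 1.5-fold higher and 79 (2.85%) at least 1.5-fold lower with Pax7 in both libraries. In single libraries 7.14% were higher and 6.16% lower in GFP+ cells, and 4.04% higher and 3.42% lower in GFP- cells. Cells with Pax7 had a median of 14474 UMIs in the GFP+ library and those without 24043.5, and in the GFP- library 13709 with and 16184.5 without. The highest by the library nearer to 1 was Chodl, at 324 CPM in cells with and 86.1 CPM in cells without Pax7 in the GFP+ library, a ratio of 3.76 (3.40 to 4.15), and at 165 CPM with and 58.5 CPM without Pax7 in the GFP- library, a ratio of 2.82 (2.641 to 3.001).

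Among the 12 highest were Itih5, an inter-alpha-trypsin inhibitor heavy chain (3.49-fold in GFP+ and 2.50-fold in GFP- cells), Col4a1, a chain of basement membrane collagen IV (2.11-fold and 2.26-fold), and Adamts5, a proteoglycan-cleaving metalloprotease (2.16-fold and 1.96-fold). So were Errfi1, a feedback inhibitor of EGF receptors (3.37-fold in GFP+ and 1.998-fold in GFP- cells), Gxylt2, which adds xylose to O-glucose on Notch-type repeats (2.84-fold and 2.17-fold), and Fxyd1, a regulator of the sodium pump (2.24-fold and 1.98-fold). The others were the imprinted long non-coding RNA Meg3, the microtubule-binding Dcx, Pxdc1, Olfml2a and the lipid carrier Apoe. Apoe was 3.07-fold higher with Pax7 in GFP+ and 2.34-fold higher in GFP- cells, but over all kept barcodes, macrophage-range cells included, its ratios were 0.202 in GFP+ and 0.591 in GFP- cells.

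By the library nearer to 1 the lowest ratio was that of Acta1, skeletal actin, which was at 20.05 CPM with and 668 CPM without Pax7 in GFP+ cells, a ratio of 0.030 (0.0239 to 0.0372), and at 65.2 CPM with and 705 CPM without Pax7 in GFP- cells, a ratio of 0.0925 (0.0863 to 0.0990). Myog had ratios of 0.0311 in GFP+ and 0.136 in GFP- cells, and the fusion genes Mymk (0.0449 and 0.116) and Mymx (0.0439 and 0.203) were also low. Cardiac actin Actc1, the myosin light chains Mylpf and Myl4 and the inositol synthase Isyna1 completed the 8 lowest. Cells with 0 Myog UMIs, here and below, had 0 after thinning and could still hold Myog UMIs as deposited. Among such cells, Myog itself had ratios with Pax7 of 0.295 in GFP+ and 0.372 in GFP- cells. The counts there were 27 higher and 27 lower genes. Mymk (2.02), Actc1 (1.60) and Myl4 (1.23) lay above 1 in GFP+ cells there, each with an interval that included 1. Acta1 was at 0.820 in GFP+ and 0.444 in GFP- cells there, whereas Chodl was still 2.75-fold higher in GFP+ and 2.18-fold higher in GFP- cells.

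**Figure D5:**
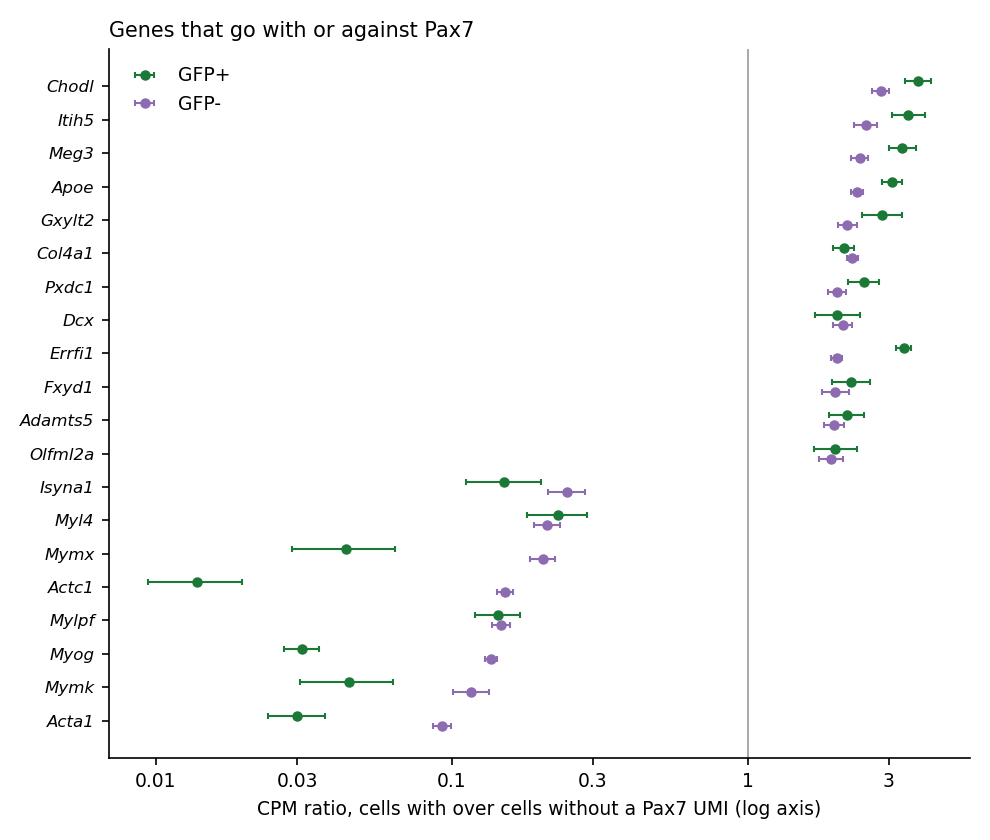
CPM ratio of cells with to cells without a Pax7 UMI (log axis) for the 12 genes with the highest and the 8 with the lowest ratio in both libraries, in GFP+ (green) and GFP- (purple) cells with exact 95% intervals. The upper 12 lie between 1.91 and 3.76, and the lower 8 reach 0.0138 for Actc1 in GFP+ cells.

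For Pax3 the split was coarser, with 36 cells holding a Pax3 UMI in each library at 3000 UMIs. Of 2742 genes compared, 41 (1.5%) were at least 1.5-fold higher and 40 (1.46%) at least 1.5-fold lower in both libraries. In single libraries 5.32% were higher and 8.42% lower in GFP+ cells, and 4.45% higher and 5.22% lower in GFP- cells. Another random draw at the same depth gave 17 higher and 19 lower genes, and detection probabilities in place of a draw gave 4 higher and 14 lower genes, so the number of calls depended on the draw. Among the 12 highest were Hmcn2, a hemicentin of the extracellular matrix (3.34-fold in GFP+ and 3.26-fold in GFP- cells), Chodl (3.16-fold and 2.62-fold) and Itih5 (2.40-fold and 2.17-fold).

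Egr1, an immediate-early transcription factor, was 2.92-fold (2.63 to 3.24) higher with Pax3 in GFP+ and 1.92-fold (1.63 to 2.24) higher in GFP- cells, and with detection probabilities 2.32-fold in GFP+ and 1.86-fold in GFP- cells. Socs3, a brake on cytokine signalling, was 2.42-fold higher in GFP+ and 1.80-fold higher in GFP- cells. Trib1, Pde4b, Skil, Spsb1, Rhoj and Fibin were also among the 12. Of the 12, Chodl and Egr1 had a ratio above 1.5 in both libraries with detection probabilities, at 2.63 in GFP+ and 1.81 in GFP- cells for Chodl. GFP+ cells with a Pax3 UMI had a median of 8636 UMIs and those without 20510, and the part of depth in these ratios was not tested.

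Among the 8 lowest with Pax3, Ube2c, of mitotic protein turnover, had ratios of 0.0535 in GFP+ and 0.148 in GFP- cells, but rested on 2 UMIs in GFP+ cells with Pax3, and another draw gave 1.16 and thinning to 5000 UMIs 1.90 in GFP+ cells. Birc5 and Top2a, both of dividing cells, also turned above 1 in GFP+ cells when thinned to 5000 UMIs (1.001 and 1.28). Mylpf, Acta1 and the muscle enolase Eno3 stayed under 1 in every alternative, with detection probability ratios between 0.215 and 0.544. Isg15, an interferon-induced gene, stayed under 1 too, but only at 0.781 in GFP+ and 0.836 in GFP- cells with detection probabilities.

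Both paralogues had Chodl and Itih5 among their 12 highest and Mylpf and Acta1 among their 8 lowest. The 2 splits were made on the same cells and are not independent of each other. Over the 20 genes named for each paralogue, 16 for Pax7 and 13 for Pax3 kept their direction in both libraries under every alternative run.

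Known PAX3 or PAX7 targets from mouse work were read from a list of 10, of which 8 had enough counts. The list was chosen with earlier results of these data known, so its counts are no independent support. With Pax7, 2 of the 8 were at least 1.5-fold higher in both libraries and 0 lower: Myf5, the earliest of the myogenic factors to be expressed (1.64-fold in GFP+ and 1.62-fold in GFP- cells), and Id3, an inhibitor of basic helix-loop-helix factors (3.05-fold and 1.72-fold). Over all genes compared 3.24% were higher in both. In cells with 0 Myog UMIs Myf5 was 1.23-fold higher in GFP+ and 1.30-fold higher in GFP- cells, which ends its call, and Id3 was 2.44-fold and 1.53-fold higher. Their median log2 ratio with Pax7 was 0.59 in GFP+ and 0.42 in GFP- cells, against -0.03 and -0.01 for all genes compared. Spry1, a feedback inhibitor of FGF signalling, was 2.11-fold higher with Pax7 in GFP+ but 1.25-fold in GFP- cells, and Itm2a was 1.39-fold and 1.79-fold higher. Fgfr4 was 1.36-fold higher with Pax7 in GFP+ and 1.22-fold higher in GFP- cells, while the receptor genes Met (0.941 and 1.14) and Cxcr4 (0.923 and 1.11) stayed near 1. Id2, another such inhibitor, was 1.80-fold higher with Pax7 in GFP+ and 1.44-fold higher in GFP- cells. With Pax3, 0 of the 8 passed in both libraries, where 1.5% of all genes compared were higher and 1.46% lower. Id3 with Pax3 was 2.67-fold (2.39 to 2.98) higher in GFP+ but at 0.851 (0.674 to 1.06) in GFP- cells. Between fractions, 4 of the 8 were at least 1.5-fold higher in GFP+ cells (4.64% over all genes) and 0 lower. These were Cxcr4 (1.77-fold), Id3 (1.65-fold), Fgfr4 (1.57-fold) and Myf5 (1.55-fold). The median log2 ratio between fractions was 0.60 for the list and -0.09 for all genes. Cxcr4 was lower in cells (82.7 CPM in GFP+ and 46.8 CPM in GFP-) than in empty droplets (130 CPM in GFP+ and 75.8 CPM in GFP-). Id3 was lower too, at 321 CPM in GFP+ and 195 CPM in GFP- cells against 341 CPM and 230 CPM in empty droplets. Fgfr4 was higher in cells than in empty droplets in the GFP+ library only, and Myf5 in both libraries. The part of background in these ratios was not tested.

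Of the 4 myogenic factors, Myf5 was higher with Pax7, and Myod1 (0.376 in GFP+ and 0.397 in GFP- cells) and Myog were lower, in both libraries. Over all genes compared with Pax7 3.24% were higher and 2.85% lower in both. Myod1 and Myog are also markers used above. In cells with 0 Myog UMIs the Myod1 ratios were 0.804 in GFP+ and 0.698 in GFP- cells. Myf6 was too low to be compared, at 3.09 CPM in GFP+ and 1.75 CPM in GFP- cells. With Pax3, Myf5 was 1.59-fold higher in GFP+ and 1.18-fold higher in GFP- cells, and 0 of the 3 factors compared passed in both libraries. Over all genes compared with Pax3 1.5% were higher and 1.46% lower in both.

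A list of 13 genes linked to satellite cell quiescence was chosen with earlier results of these data known, and it holds Chodl, a marker used above. Its counts are therefore no independent support. Of the 13 genes, 9 were compared with Pax7, and 4 were at least 1.5-fold higher in both libraries and 0 lower. These were Chodl, the syndecan Sdc4 (3.01-fold in GFP+ and 1.63-fold in GFP- cells), the Notch target Heyl (1.88-fold and 1.996-fold) and the Notch receptor Notch3 (1.92-fold and 1.81-fold), which is also expressed by mural cells. Notch3 was itself in the mural marker list by which barcodes were left out, so its range in these cells was limited by that step. Over all genes compared 3.24% were higher in both. In cells with 0 Myog UMIs Chodl alone of the 4 passed in both libraries: Heyl was at 1.38 in GFP+ and 1.62 in GFP- cells, Notch3 at 1.41 in GFP+ and 1.46 in GFP- cells, and Sdc4 at 2.56 in GFP+ and 1.49 in GFP- cells. Calcr, the calcitonin receptor of quiescent satellite cells, was too low for the comparison at 10.5 CPM in GFP+ and 3.11 CPM in GFP- cells, and its ratios with Pax7 were 4.48 (2.89 to 7.14) in GFP+ and 2.28 (1.60 to 3.28) in GFP- cells. With Pax3, 2 of the 9 passed in both libraries, Chodl and Sdc4 (2.54-fold in GFP+ and 1.57-fold in GFP- cells). Over all genes compared with Pax3 1.5% were higher in both, and the number of such calls depended on the draw. The list's median log2 ratio with Pax3 was 0.64 in GFP+ and 0.53 in GFP- cells, against -0.09 and -0.02 for all genes compared.

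The list of 9 differentiation genes was also chosen with earlier results of these data known, and it holds Myog, a marker used above. Of the 9 genes, 5 were compared with Pax7, and 5 were lower and 0 higher in both libraries. Over all genes compared 2.85% were lower in both. The 5 were Myog, Mymk, Mymx, Actc1 and Cdkn1a, the cell-cycle inhibitor p21 (0.624 in GFP+ and 0.497 in GFP- cells), with a median log2 ratio of -4.51 in GFP+ and -2.72 in GFP- cells, against -0.03 and -0.01 for all genes. In cells with 0 thinned Myog UMIs, Mymx stayed at least 1.5-fold lower in both libraries. These cells can still hold Myog UMIs as deposited, and Myog also stayed lower, at 0.295 in GFP+ and 0.372 in GFP- cells. Cdkn1a was at 1.39 in GFP+ and 0.928 in GFP- cells there. With Pax3 only Mymk (0.632 in GFP+ and 0.107 in GFP- cells) was at least 1.5-fold lower in both. Over all genes compared with Pax3 1.46% were lower in both. The Mymk call was not made in cells with 0 Myog UMIs. Myog with Pax3 was at 0.992 (0.901 to 1.09) in GFP+ and 0.239 (0.193 to 0.293) in GFP- cells. In GFP+ cells with 0 thinned Myog UMIs the Myog ratio with Pax3 was 0.467. Only 2 of the 36 GFP+ cells with a Pax3 UMI were in the Myog state, and the interval around 0.992 leaves out variation between cells.

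Of the listed cofactors and modifiers of PAX proteins, Nedd4, a ubiquitin ligase, and Csnk2a1, a casein kinase subunit, did not reach 1.5-fold in either direction with either paralogue. With Pax7 the ratios of Nedd4 were 1.001 in GFP+ and 1.06 in GFP- cells, and those of Csnk2a1 were 0.956 in GFP+ and 1.02 in GFP- cells. Carm1, the arginine methyltransferase that acts with PAX7 on Myf5, had 29.6 CPM in GFP+ and 30.0 CPM in GFP- cells, and its ratio with Pax7 was 0.962 (0.760 to 1.22) in GFP+ and 0.973 (0.862 to 1.10) in GFP- cells. Six2 was at 24.2 CPM in GFP+ and 8.02 CPM in GFP- cells, and its ratio with Pax7 was 1.09 (0.842 to 1.40) in GFP+ and 1.28 (1.02 to 1.60) in GFP- cells. The 7 other Pax genes of the list had 0 to 2 UMIs each in either library.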

How the data were processed

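Raw UMI counts of each gene in every barcode, filtered for neither, were deposited, and come from Cell Ranger 4 per the file headers; the submitters' processing notes name Cell Ranger, Seurat and mm10. The sources used here name no annotation release or counting settings. The members, marker limits and gene lists were chosen with earlier results of these data known. A kept barcode had 1000 UMIs or more, 500 genes or more and a mitochondrial share of up to 10%. Barcodes with at least 3 UMIs and 2000 CPM of 1 non-myogenic marker list were left out of the myogenic range; doublets were not called, and cells above 2 times the median UMIs were left out as an alternative. The libraries held 13928952 UMIs over 718416 barcodes (GFP+) and 49709323 UMIs over 1361552 barcodes (GFP-), of which myogenic-range cells held 10677624 UMIs (GFP+) and 42386749 UMIs (GFP-).

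Levels are summed UMIs per 1000000 (CPM), computed here from the deposited counts, with exact Poisson intervals. Ratios of CPM carry exact conditional intervals, and shares exact binomial (Clopper-Pearson) intervals. Detection, marker levels and splits used 1 seeded draw of 3000 UMIs per cell; a floor was 3 counts over the group. The named genes were the lists and, per paralogue, the 12 highest and 8 lowest ratios by the library nearer to 1, leaving out genes of haemoglobin, mitochondria and ribosomal proteins and unnamed gene models. UMIs of 1 library are not replicates, so intervals leave out variation between cells and animals. Gene models came from GENCODE M21. Some genes of the lists and rankings are not reported here. The split ratios were tested on simulated cells that held Pax7 either far above its mean level here or not at all. A split on a sparsely detected gene was therefore not covered, and no split on Pax3 was simulated. Biopython 1.88, statsmodels 0.14.6, scipy 1.17.1, matplotlib 3.10.9, pandas 2.3.3 and numpy 2.4.6 ran under Python 3.11.15.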

Additional observations from a re-analysis of the deposited data

How the results depend on the processing

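No paired analysis was possible because each fraction has 1 library and no result comes from a test. Of the alternatives, thinning to 10000 UMIs, the counts as deposited and the detection probabilities were chosen after seeing the data. The direction was the same under every alternative run for the GFP+ to GFP- ratios, the Pax7 Myog-high to Myog-0 ratios and the co-detection differences. The Pax3 ratio of GFP+ to GFP- cells was 6.14 with cells weighted equally and otherwise between 3.998 and 4.62. The Pax7 ratio was 1.31 over all kept barcodes, 1.52 at a mitochondrial limit of 5%, 1.496 without cells above 2 times the median UMIs, 1.30 without cells with an Erfe UMI and 1.72 with cells weighted equally. The Pax7 Myog-high to Myog-0 ratio in GFP- cells was 0.167 at the 5% limit, 0.111 without the deepest cells, 0.115 at 2000 UMIs and 0.185 at 10000 UMIs. The co-detection difference in GFP+ cells was 26.4 points over all kept barcodes and 32.4 points at 2000 UMIs; it ranged from 2.88 to 23.3 points in GFP- cells.

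The genes going with Pax7 numbered 27 higher and 27 lower in cells with 0 Myog UMIs, 157 and 145 at a 20 CPM minimum, 47 and 49 at 100 CPM, 8 and 23 at 2-fold, and 177 and 148 at 10000 UMIs. Those going with Pax3 numbered 20 higher and 65 lower over all kept barcodes, 22 and 14 without the deepest cells, 17 and 19 in another draw, 132 and 114 at 20 CPM, 22 and 16 at 100 CPM, 4 and 10 at 2-fold, 6 and 20 at 10000 UMIs and 4 and 14 with detection probabilities; 22 were higher at 5000 UMIs and 24 at 2000 UMIs. Of single values, the Pax7 Myod1 ratio in GFP+ cells turned to 1.005 at 2000 UMIs. With Pax7, Apoe turned to 0.202 in GFP+ and 0.591 in GFP- cells over all kept barcodes, and in cells with 0 Myog UMIs Mymk turned to 2.02 and Actc1 to 1.60 in GFP+ cells, and Myl4 to 1.23 in GFP+ and 1.004 in GFP- cells. With Pax3, another draw gave 0.982 for Itih5 in GFP-, 1.15 for Myl9 in GFP- and 1.16 for Ube2c in GFP+ cells. Thinning to 5000 UMIs gave 1.90 for Ube2c, 1.001 for Birc5 and 1.28 for Top2a in GFP+ cells, all kept barcodes 0.972 for Fibin in GFP+ cells and 2000 UMIs 0.963 for Skil in GFP- cells. Of the other ratios of the 20 highest and lowest genes per paralogue 336 stayed within their counting interval and 370 moved beyond it without turning, and of the other marker ratios 101 stayed and 24 moved. Among the listed genes, Cdkn1a with Pax7 turned to 1.39 in GFP+ cells with 0 Myog UMIs. The cause was not tested. With 36 cells per library holding Pax3 at 3000 UMIs, the depth limits every split on Pax3.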
